A study of Mus musculus with 6 samples.

Results

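The Fox, Sox, Gata, Tbx, Pax and Lhx genes of the mouse and the genes Six2 to Six6 were taken by symbol from the annotation of the array, as Fox with a letter and a number or as a family name followed by a number. This gave 98 genes with 110 probes, of 18545 named genes on the array. There were 39 Fox, 19 Sox, 13 Tbx, 9 Pax, 7 Lhx, 6 Gata and 5 genes from Six2 to Six6, called the Six2 family below. Members were taken by symbol and not by their measured values, though the set was chosen with earlier results of these data known. No member was removed by a filter. Genes named only for a neighbour, such as antisense transcripts or Gatad and Paxip genes, were not members.

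All 7 families encode transcription factors that bind DNA through a conserved domain, the forkhead in Fox, the HMG box in Sox, zinc fingers in Gata, the T-box in Tbx, the paired domain in Pax and the homeodomain in Lhx and in the Six2 family. Many act in the choice and upkeep of cell identity, so that a tissue transcribes a particular few of each family. In the mouse, Sox30 acts in spermatids, Foxi1 in the proton-secreting cells of kidney and epididymis, Sox7, Sox17 and Sox18 in endothelium, and Tbx21 in cytotoxic and helper lymphocytes.

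The study compared total RNA of mouse testis, of mouse epididymis and of the stromal vascular fraction (SVF) of adipose tissue, which is the mixture of progenitor, endothelial and immune cells left when adipocytes are removed. Each pair of tissues was hybridised on 2 two-colour arrays with Cy3 and Cy5 exchanged, which gave 6 arrays in 3 dye swaps. The series names 3 RNA samples, 1 per tissue, so the 2 arrays of a dye swap repeat the same RNAs and there is no test between tissues. The labels used here name no strain, age or number of animals, and in whole tissues fewer cells of a type and less RNA per cell cannot be told apart.

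Values below are log2 ratios of the first-named tissue over the second, on the array with the first-named tissue in Cy5 and on the array with it in Cy3, or their mean ± SD (n = 2 hybridisations). A gene was counted as higher or lower when its log2 ratio reached 1 in size, or 2-fold, with the same sign on both arrays. The folds rest on reading the deposited logarithms as log2, and the signs on Cy5 as the numerator, which is likely because each title names the Cy5 tissue first. Markers of the 3 tissues lay on the side of their labels. Of 8 meiotic and germ cell markers 7 were higher in testis than in SVF (median 5.55), all 9 measured epididymal epithelium markers had the higher level in epididymis when set against SVF (median 6.88), and all 7 measured mesenchymal markers were lower in testis than in SVF (median -3.99). Adipocyte markers were present on the SVF side too, with 5 of 6 lower in testis than in SVF (median -2.60).

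As sequence context for members that stood apart in each tissue, the 250 bases upstream of the annotated start of 5 genes are printed from the RefSeq promoter table (GRCm38.p6), 5′ to 3′ on the strand of the gene, with CG dinucleotides in capitals. The 5 genes were chosen after their values were seen. Sox30 and Sox5 were high in testis, Gata3 and Foxi1 in epididymis, and Tbx21 in SVF.
Sox30, chr11:45980060-45980309, plus strand: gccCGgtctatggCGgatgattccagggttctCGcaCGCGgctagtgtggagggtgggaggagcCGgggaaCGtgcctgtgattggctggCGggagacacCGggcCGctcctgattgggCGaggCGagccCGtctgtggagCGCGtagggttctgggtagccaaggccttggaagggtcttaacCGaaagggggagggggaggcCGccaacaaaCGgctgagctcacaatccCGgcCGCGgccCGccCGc
Sox5, chr6:143947107-143947356, minus strand: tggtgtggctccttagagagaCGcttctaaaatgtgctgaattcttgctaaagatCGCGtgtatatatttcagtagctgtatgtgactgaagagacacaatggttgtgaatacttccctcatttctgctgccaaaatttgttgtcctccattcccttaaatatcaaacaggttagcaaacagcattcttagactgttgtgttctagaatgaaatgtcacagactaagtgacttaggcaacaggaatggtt
Gata3, chr2:9878601-9878850, minus strand: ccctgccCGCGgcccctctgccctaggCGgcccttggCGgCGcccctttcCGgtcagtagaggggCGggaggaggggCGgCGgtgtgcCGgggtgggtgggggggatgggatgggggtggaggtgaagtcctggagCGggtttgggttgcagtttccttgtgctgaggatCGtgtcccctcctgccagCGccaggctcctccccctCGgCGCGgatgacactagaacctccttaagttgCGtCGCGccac
Foxi1, chr11:34208090-34208339, minus strand: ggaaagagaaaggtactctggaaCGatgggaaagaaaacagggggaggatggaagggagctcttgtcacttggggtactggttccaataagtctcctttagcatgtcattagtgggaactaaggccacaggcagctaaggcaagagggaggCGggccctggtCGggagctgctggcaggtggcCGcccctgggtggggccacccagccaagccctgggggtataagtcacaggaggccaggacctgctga
Tbx21, chr11:97115332-97115581, minus strand: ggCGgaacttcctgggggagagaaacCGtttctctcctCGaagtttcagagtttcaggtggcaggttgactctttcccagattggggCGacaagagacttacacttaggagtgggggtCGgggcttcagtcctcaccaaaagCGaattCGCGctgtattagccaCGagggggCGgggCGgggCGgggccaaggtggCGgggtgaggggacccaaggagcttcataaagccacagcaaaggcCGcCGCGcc

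The pairs with a shared tissue pattern did not share promoter composition. Sox30 had 23 CG dinucleotides in its 250 bases and Sox5 had 3. Gata3 had 19, Foxi1 had 4 and Tbx21 had 16. The median was 15 over the 69 members with an entry in that table and 6 over the 27025 genes with one. The windows were searched on both strands. The forkhead motif TGTTTAC had no match in the 5 windows. Neither had the zinc finger motif AGATAA for Gata factors, the motif GGTGTGA for T-box factors or the cAMP response element TGACGTCA. The Sox motif ACAATG had 1 match, which starts 154 bases before the Sox5 start. Over all 27025 promoter windows of this length, the shares with a match were 3.09% for TGTTTAC, 11.0% for ACAATG, 10.3% for AGATAA, 3.31% for GGTGTGA and 1.62% for TGACGTCA.

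Most members did not meet the 2-fold rule in any comparison. At least 1 comparison met it for 29 of 98 members (29.6%), against 47.1% of all named genes. It was met in exactly 1 comparison by 12 members, in 2 by 14 and in all 3 by 3 (Sox6, Gata3 and Tbx2). That split was not counted over all named genes, so no excess or lack can be read from it. In testis over SVF, 17 members met it in either direction (17.3%, against 36.7% of all named genes), of which 7 (7.14%) were higher, against 20.7% of all named genes, and 10 (10.2%) were lower, against 16.0%. For epididymis over SVF the number was 14 (14.3%, against 18.9%), of which 9 (9.18%) were higher, against 10.2%, and 5 (5.10%) were lower, against 8.68%. For epididymis over testis it was 18 (18.4%, against 32.3%), of which 8 (8.16%) were higher, against 14.3%, and 10 (10.2%) were lower, against 18.0%. The members' share was thus below that of all genes in all 6 counts, and closest to it for genes higher in epididymis than in SVF. These shares include 17 members that could not meet the rule. All their probes had the same sign on all 6 arrays as deposited, and so opposite signs once an array was turned. Such probes were 17.3% of member probes, against 6.57% of all named probes. How far this lowers the members' shares was not tested.

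**Figure D1:**
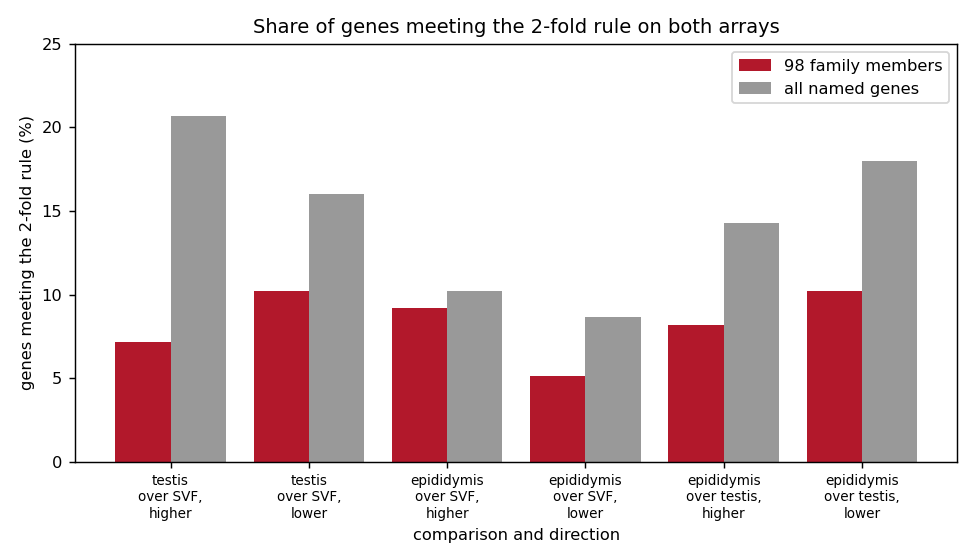
Percentage of genes with a log2 ratio that reached 1 in size with the same sign on both arrays, for the 98 family members (red, left) and all 18545 named genes (grey, right), by comparison and direction. The red bar is lower than the grey one in each pair, with the smallest gap for epididymis over SVF, higher (9.18% against 10.2%). The 98 include 17 members that could not meet the rule because of a dye effect.

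The median ratio of the 98 members was near 0 in every comparison. It was -0.11 in testis over SVF, 0.01 in epididymis over SVF and -0.06 in epididymis over testis, against 0.00, 0.07 and 0.00 for all named genes. The median size of the members' ratios, sign aside, was 0.56, 0.39 and 0.37 in the same order, against 0.83, 0.51 and 0.75 for all named genes. Their median SD between the 2 arrays was 0.43, 0.49 and 0.43, against 0.33, 0.37 and 0.35. By family, the genes that met the rule in any comparison, against the 47.1% of all named genes given above, were 8 of 39 Fox, 8 of 19 Sox, 2 of 6 Gata, 5 of 13 Tbx, 3 of 9 Pax, 1 of 7 Lhx and 2 of 5 Six2 family genes. These counts include genes that could not meet the rule because of a dye effect, among them 5 of the 7 Lhx and 2 of the 5 Six2 family genes. The low Lhx count is therefore no sign of like levels in the tissues.

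Testis stood above both other tissues for 7 members (7.14%, against 15.6% of all named genes), and these were Sox6, Sox5, Sox30, Foxm1, Foxj1, Pax1 and Lhx2. The 3 Sox genes had the largest ratios of any member toward testis. Sox5 and Sox6 form the SoxD group, known in the mouse for cartilage formation, with a short Sox5 form made in spermatids. Sox6 had log2 ratios of testis over SVF of 5.20 and 4.69, a 30.8-fold difference (4.94 ± 0.36), and of epididymis over testis of -3.68 and -4.34. Sox5 had 4.93 and 4.69 in testis over SVF, 28.0-fold (4.81 ± 0.17), and -3.94 and -4.44 in epididymis over testis. The 2 SoxD genes thus had ratios close to each other on each of these arrays. Sox30, required in the mouse for the development of round spermatids, had 4.06 and 3.63 in testis over SVF, 14.4-fold (3.85 ± 0.30), and -3.45 and -4.16 in epididymis over testis.

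In epididymis over SVF the ratios of these 3 Sox genes were smaller. Sox6 met the rule there, with 1.06 and 1.19. Sox5, with 1.19 and 0.59, did not meet it, but its values overlap those of Sox6. Sox30 had -0.05 and 0.19. In the same comparison 5 of 8 meiotic and germ cell markers (median 1.80) and 9 of 12 late spermatid markers (median 2.14) were higher in epididymis, and the part of germ cell RNA in the Sox6 ratio was not tested. The Sox6 call in epididymis over SVF was lost when each array was centred on its median.

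Foxj1 and Foxm1 were the 2 Fox genes higher in testis. Foxj1, the master factor of motile cilia, had 2.60 and 1.97 in testis over SVF, 4.87-fold (2.28 ± 0.45), and -1.36 and -2.17 in epididymis over testis. In epididymis over SVF it had 0.60 and 0.48 and did not meet the rule. Foxm1, which drives genes of the G2 and M phases, has 2 probes, both of which met the rule. Their mean was 2.72 and 2.88 in testis over SVF, 6.96-fold (2.80 ± 0.12), and -2.23 and -2.49 in epididymis over testis. In epididymis over SVF the 2 arrays of Foxm1 differed in sign, at -0.37 and 0.88.

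Pax1 and Lhx2 showed smaller ratios toward testis. Pax1, known for the vertebral column and thymus, had 2.00 and 1.32 in testis over SVF (1.66 ± 0.48) and -3.04 and -2.80 in epididymis over testis (-2.92 ± 0.17). These do not close around the loop. Testis over SVF plus epididymis over testis minus epididymis over SVF, which is 0 without error, was -1.94 for Pax1, so the size of its testis ratio is uncertain. Lhx2, a homeobox gene of eye, forebrain and hair follicle, had 1.04 and 1.17 in testis over SVF, and -1.13 and -1.93 in epididymis over testis. Its values in the first comparison lay just above the 2-fold limit.

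Epididymis stood above both other tissues for 5 members (5.10%, against 4.34% of all named genes), and these were Pax8, Foxi1, Gata3, Tbx2 and Tbx3. Pax8, a factor of thyroid, kidney and the ducts derived with the kidney, had the largest ratio of any member in epididymis over SVF, with 3.77 and 2.69, 9.39-fold (3.23 ± 0.76). In epididymis over testis it had 3.25 and 2.79, 8.11-fold (3.02 ± 0.32). Foxi1, which in mouse kidney and epididymis drives the genes of proton pumping cells, had 2.52 and 2.12 in epididymis over SVF, 4.99-fold, and 3.38 and 3.21 in epididymis over testis, 9.81-fold (3.29 ± 0.12). Of the 5 clear cell markers beside it, Car2 and Slc26a3 exceeded SVF in epididymis (list median 1.04), and 4 were higher and 1, Atp6v1b1, was lower in epididymis than in testis (list median 3.10).

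Gata3, Tbx2 and Tbx3 were about 10-fold or more above testis in epididymis. Gata3, needed for the nephric duct and for T cell fates, had 3.03 and 3.61 in epididymis over testis, a mean of 3.32 ± 0.41. The paired repressors Tbx2 and Tbx3 had 3.47 and 3.71 (12.1-fold, 3.59 ± 0.17) and 3.74 and 3.23 (11.2-fold, 3.49 ± 0.36) in that comparison, and Tbx2 was the highest of all members there. Against SVF the ratios of epididymis were smaller, at 1.82 and 2.25 for Gata3, 2.52 and 1.82 for Tbx2, and 1.65 and 1.86 for Tbx3. Beside them, 7 of 9 epithelial markers exceeded SVF in epididymis (median 3.38) and all 9 were higher than in testis (median 3.02). The part of the epithelial share of the tissue in these ratios was not tested.

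Testis stood below both other tissues for 4 members (4.08%, against 7.97% of all named genes), all of them in the Gata, Tbx and Sox families. Gata3 and Tbx2 were among them, with testis over SVF at -2.01 and -1.63 for Gata3 and at -2.47 and -1.34 for Tbx2. These 2 genes therefore had the order epididymis, SVF, testis from high to low, each step at 2-fold or more on both arrays. Gata2, a factor of blood progenitors and preadipocytes, had -2.32 and -2.55 in testis over SVF, 5.42-fold lower in testis (-2.44 ± 0.16), and 2.06 and 2.58 in epididymis over testis. In epididymis over SVF Gata2 had -0.16 on both arrays. Sox13, a SoxD gene like Sox5 and Sox6 and known in gamma delta T cells, had -2.02 and -1.40 in testis over SVF and 1.02 and 2.12 in epididymis over testis. The second of these calls, and with it the place of Sox13 among the 4, was lost when each array was centred on its median. Its direction was thus opposite to that of Sox5 and Sox6. No member stood below both other tissues in epididymis (0.927% of all named genes did), and only Sox6 was higher in both testis and epididymis than in SVF (1.02%, against 4.99%).

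SVF stood above both other tissues for 3 members (3.06%, against 6.95% of all named genes), which were Sox7, Sox17 and Tbx21. Sox7 and Sox17 belong to the SoxF group of endothelial factors. Sox7 had -4.30 and -4.68 in testis over SVF, 22.5-fold lower in testis (-4.49 ± 0.27), and -4.04 and -4.89 in epididymis over SVF, 22.1-fold lower in epididymis (-4.46 ± 0.61). Its means were the lowest of any member in both comparisons. Sox17 had -2.76 and -2.48 in testis over SVF, and -2.16 and -1.87 in epididymis over SVF. Sox18, the remaining SoxF gene, had -0.21 and -0.54 in testis over SVF and -0.57 and -0.16 in epididymis over SVF, and did not meet the rule. Endothelial markers were lower for 7 of 9 in testis than in SVF (median -2.47) and for 6 of 9 in epididymis than in SVF (median -2.40). The part of the endothelial share of the fraction in the Sox7 and Sox17 ratios was not tested.

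Tbx21 encodes T-bet, the factor of helper type 1 and natural killer cells. It had -4.32 and -3.91 in testis over SVF, 17.3-fold lower in testis (-4.11 ± 0.29), and -3.18 and -3.49 in epididymis over SVF, 10.1-fold lower in epididymis (-3.34 ± 0.22). In epididymis over testis it had 0.64 and 1.11 and did not meet the rule. Of 7 T and NK cell markers, 4 were lower in testis than in SVF (median -1.21), 4 were lower in epididymis than in SVF and 1, Klrb1c, was higher there (median -1.55). What these cells contributed to the Tbx21 ratio was not tested.

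**Figure D2:**
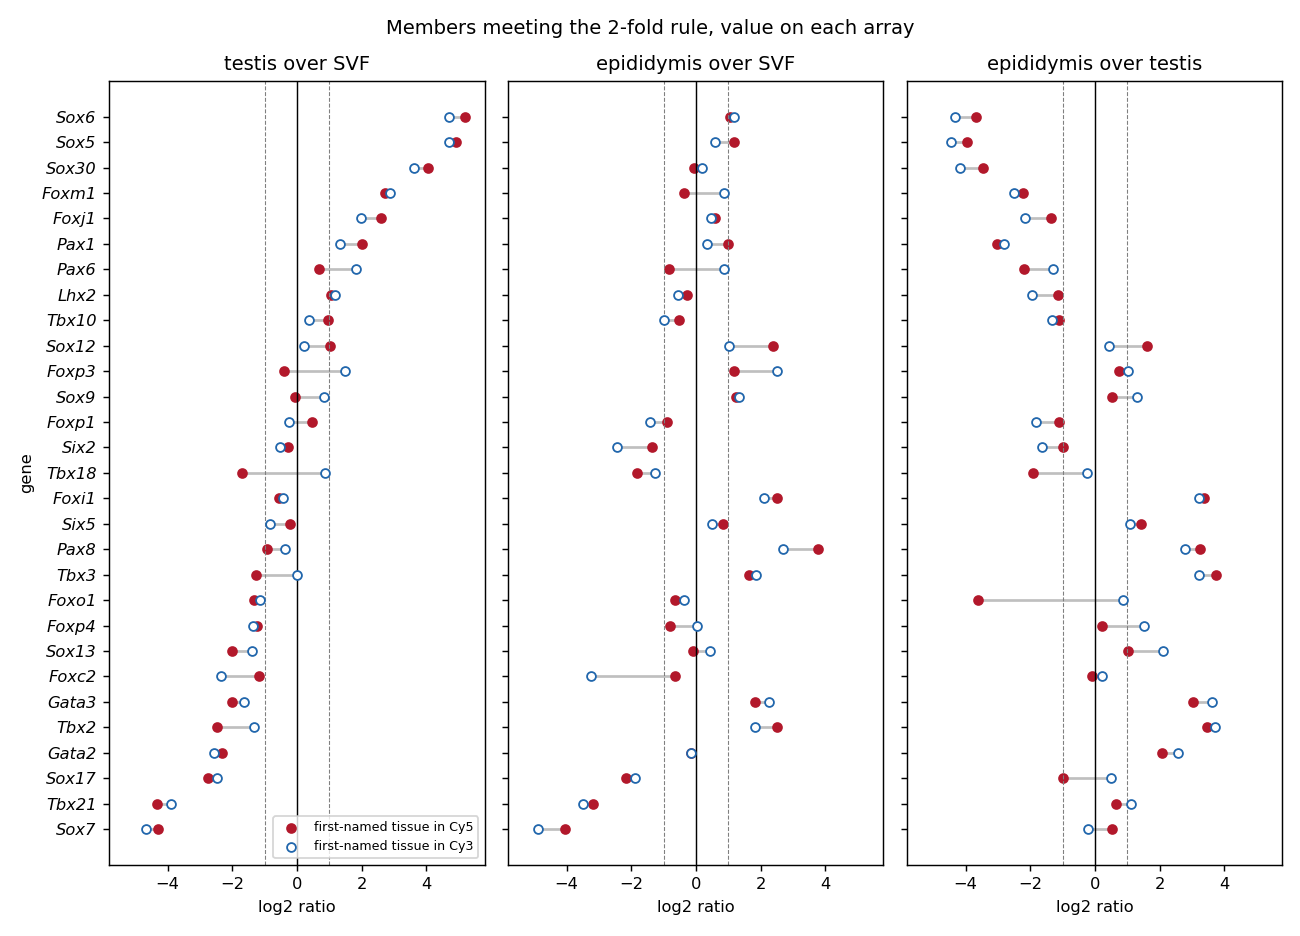
Log2 ratios of the 29 members that met the 2-fold rule in at least 1 comparison, on the array with the first-named tissue in Cy5 (red) and in Cy3 (blue, open), with a grey line joining the 2 and dashed lines at the 2-fold limit. Sox6, Sox5 and Sox30 lie far to the testis side, Sox7 and Tbx21 far to the SVF side, and Pax8, Foxi1, Gata3, Tbx2 and Tbx3 to the epididymis side in both of its panels, while Foxo1 has arrays of opposite sign in epididymis over testis (-3.60 and 0.88).

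The other 12 members that met the rule did so in 1 comparison each. In testis over SVF, 3 Fox genes were lower in testis. Foxc2, a factor of lymphatic valves and of adipocytes, had -1.18 and -2.34. Foxo1, which insulin signalling restrains, had -1.33 and -1.15 (-1.24 ± 0.13). Its loop sum was -2.09, and a least-squares estimate over the loop gave -0.55, under the 2-fold limit, so its place in the counts by role below rests on the direct arrays. Foxp4 had -1.24 and -1.36. Foxc2 had -0.64 and -3.26 in epididymis over SVF, and did not meet the rule there, since the first of these is below 1 in size.

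Against SVF, Foxp3, Sox12 and Sox9 were higher in epididymis, and Six2 and Tbx18 were lower. Foxp3, the factor of regulatory T cells, had 1.19 and 2.50. The T and NK cell markers had 4 lower and 1 higher of 7 in this comparison, as given above for Tbx21. Sox12 of the SoxC group had 2.39 and 1.01. Sox9, of Sertoli cells, cartilage and many epithelia, had 1.25 and 1.33 (1.29 ± 0.06). Six2, a factor of nephron progenitors, had -1.35 and -2.44. Tbx18, known in mural cells and in the mesenchyme of the ureter, had -1.83 and -1.28, while its arrays for testis over SVF had opposite signs (-1.70 and 0.87).

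In epididymis over testis, Six5 was higher in epididymis, and Pax6, Foxp1 and Tbx10 were lower. Six5 had 1.43 and 1.09. The eye and pancreas factor Pax6 had -2.19 and -1.31 (-1.75 ± 0.62). Tbx10 had -1.12 and -1.34. Foxp1 had -1.10 and -1.82 over its 2 probes. One of these met the rule alone (-1.15 and -2.77), and the other (-1.06 and -0.87) did not.

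By role, the lists showed where members with a known tissue function lay. The lists of roles overlap, and their counts are read against the shares of all named genes given above. Some lists also hold genes that could not meet the rule, because their only probe carried a dye effect, as described below. Of 10 measured germ cell and ciliary members, 4 were higher in testis than in SVF (Sox30, Sox5, Sox6 and Foxj1) and 1, Foxo1, was lower, with a median of 0.95. Foxj2, expressed in mouse germ cells, had 1.27 and -0.17 and did not meet the rule. Of 10 gonadal somatic members only Lhx2 was higher in testis than in SVF, and only Foxo1 was lower (median 0.10). Gata4, a factor of Sertoli and Leydig cells, had -0.90 and -0.79, and Sox8, a Sertoli cell gene, had -0.03 and 0.87. Sertoli cell markers were higher in testis than in SVF for 5 of 10 (median 1.91), and Leydig cell markers for all 5 measured (median 3.88).

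Of 12 measured members of the duct and kidney lineage, 3 were higher in epididymis than in SVF (Pax8, Foxi1 and Gata3) and 1, Six2, was lower (median 0.38). Against testis, 4 were higher in epididymis, the same 3 and Gata2, and none was lower (median 0.08). Of 12 endothelial and vascular members, 4 were lower in testis than in SVF (Sox7, Sox17, Foxc2 and Gata2), 3 were lower in epididymis than in SVF (Sox7, Sox17 and Tbx18), and none was higher in either (medians -0.57 and -0.59). Of 11 blood and immune members, 5 were lower and 0 higher when testis was set against SVF (median -0.55). Of these, in epididymis over SVF, 1 was lower and 2 were higher (median -0.12). Pax5, the B cell factor, had -0.22 and 0.23 in testis over SVF, while all 5 measured B cell markers were lower in testis (median -3.63).

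Of 23 measured mesenchymal and adipose lineage members, 5 were lower and 0 higher when testis was set against SVF (median -0.32). Over the same 23 members, 4 were higher and 1 was lower in epididymis than in SVF (median -0.08). Tbx15, a marker of fat and trunk mesenchyme with 2 probes, had -0.15 and -0.26 in testis over SVF on average and met the rule nowhere. Of 18 measured neural and neuroendocrine members, 1 (Lhx2) was higher in testis than in SVF, while in epididymis over SVF no such gene met the rule (medians 0.02 and -0.15). Of this list, Sox2, Sox10, Lhx4, Lhx6, Lhx8, Six6 and Foxe1 could not meet the rule, because their only probe carried a dye effect. Their lack of a call therefore says nothing about the tissues. Of 7 measured cell cycle and signalling members, 1 (Foxm1) was higher and 1 (Foxo1) was lower in testis than in SVF (median 0.29). Foxo4 had 0.78 and 1.07 there and did not meet the rule.

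Dye effects were more frequent among these probes than on the array as a whole. Each tissue was labelled with each dye equally often. A probe with the same sign on all 6 arrays as deposited was therefore stated as a dye effect. Its sign follows the dye, though a tissue difference smaller than the dye effect can lie beneath it. There were 19 such probes among the 110 (17.3%), against 6.57% of all named probes. Of these, 15 were below 0 on all 6 arrays (13.6%, against 3.08%), that is, brighter in Cy3, and 4 were above 0 (3.64%, against 3.48%). By family, 5 of 7 Lhx genes had such a probe, as did 5 of 39 Fox, 4 of 19 Sox, 2 of 9 Pax, 2 of 5 Six2 family, 1 of 13 Tbx and none of 6 Gata genes.

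Sox2, the pluripotency factor, had the strongest dye effect of the members. Its deposited values ran from -4.96 to -3.55, with a mean of -4.08 over the 6 arrays, the second lowest of 20924 named probes. After the exchanged array was turned, Sox2 had -4.96 and 3.55 in testis over SVF, -3.56 and 3.94 in epididymis over SVF, and -4.67 and 3.82 in epididymis over testis. No tissue difference can be read from these values. The other probes below 0 throughout belonged to Lhx1, Foxd4, Sox11 (1 of 3 probes), Lhx4, Foxf1, Tbx5, Foxi2, Foxb2, Six6, Lhx8, Pax9, Lhx6, Foxe1 and Six4, with 6-array means from -1.54 for Lhx1 to -0.44 for Six4. The 4 probes above 0 belonged to Lhx9 (mean 0.71), Pax2 (0.60), Sox21 (0.39, 1 of 2 probes) and Sox10 (0.38). Opposite signs on the turned arrays keep such a probe from meeting the 2-fold rule by construction.

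**Figure D3:**
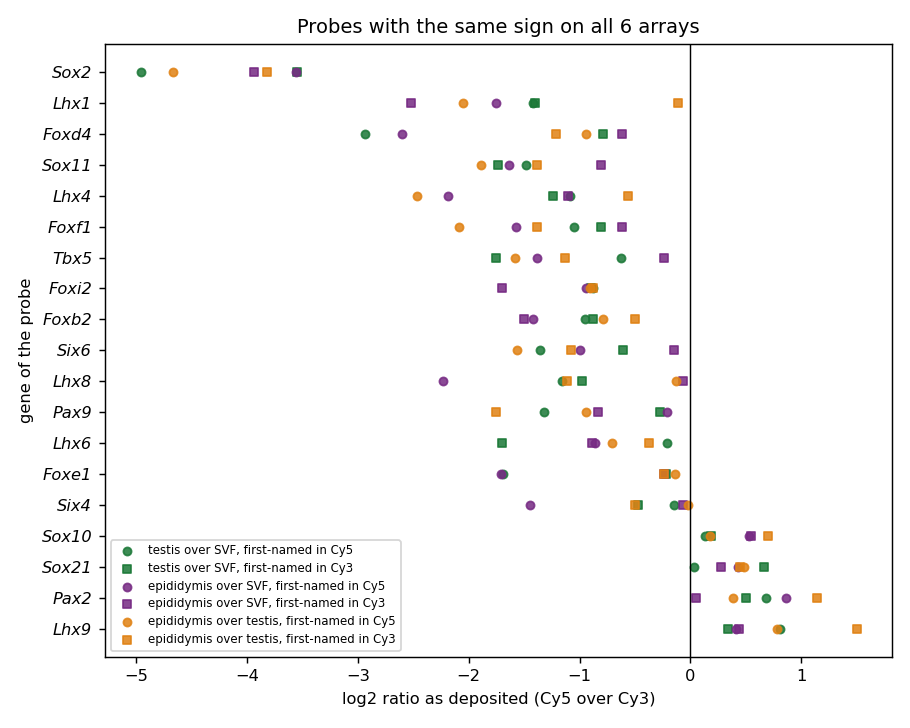
Deposited log2 ratios (Cy5 over Cy3) of the 19 member probes that had the same sign on all 6 arrays, with 1 point per array, coloured by the pair of tissues and shaped by the dye of the first-named tissue. Sox2 lies between -4.96 and -3.55 on every array, 14 other probes lie below 0 and 4 lie above 0.

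The dye effects touch genes that are known for these tissues. Lhx1 and Pax2, both factors of the nephric duct, are among them. Their ratios in epididymis over SVF were -1.75 and 2.52 (Lhx1) and 0.86 and -0.05 (Pax2). These neither show nor exclude a difference between epididymis and SVF. The same holds for Lhx9, a gene of the early gonad, with 0.81 and -0.34 in testis over SVF, and for Foxf1, a mesenchymal and vascular factor, with -1.05 and 0.81.

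Over all members, the 2 arrays of a dye swap agreed in sign less often than over all genes. They had the same sign for 67 of 98 members in testis over SVF, 46 in epididymis over SVF and 56 in epididymis over testis, while the share over all named genes was 78.3%, 68.1% and 76.1%. The 17 members with dye effects on all their probes have opposite signs here by construction. These counts are thus not separate from the count of dye effects above. Across the members the turned arrays correlated with Pearson's r of 0.61, 0.38 and 0.56, against 0.88, 0.71 and 0.81 across all named genes. Genes are not independent replicates in these correlations. Around the loop, 86 of 98 members had a sum of at most 1 in size, with a median of -0.03 and an SD of 0.59. Over all 18545 named genes, 17133 did, with an SD of 0.57. The largest sum of a member was -2.09 for Foxo1, whose arrays of epididymis over testis read -3.60 and 0.88.

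**Figure D4:**
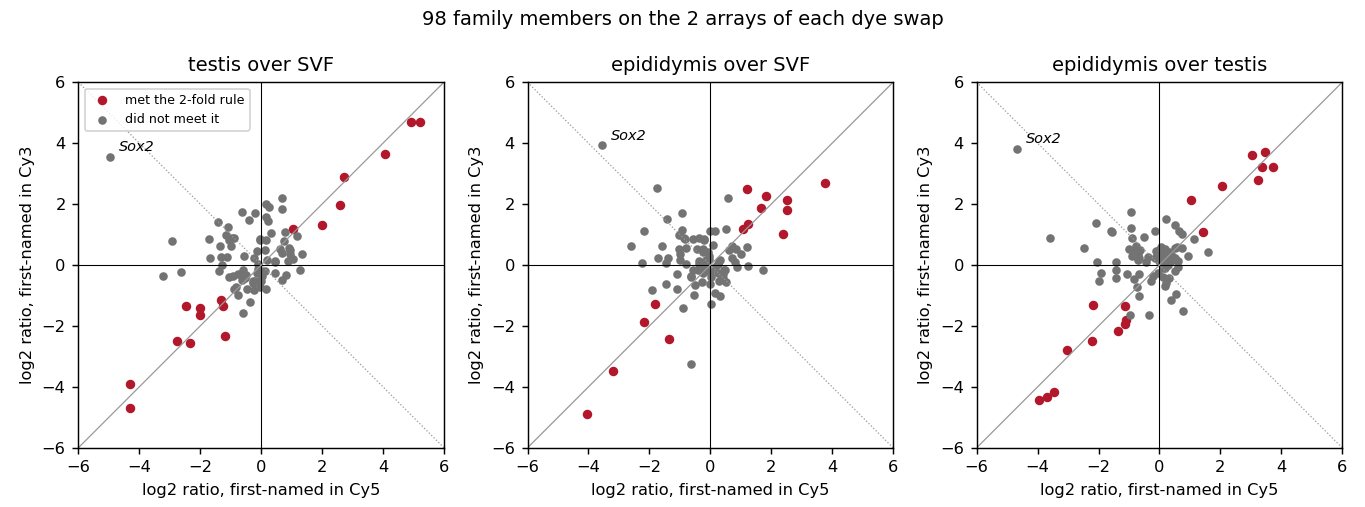
Log2 ratio of each of the 98 members with the first-named tissue in Cy5 (x axis) against the array with it in Cy3 (y axis), after turning, with members that met the 2-fold rule in red. A tissue difference lies on the solid diagonal, and a dye effect on the dotted one, where Sox2 stands (-4.96 and 3.55 in the first panel).

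Different probes of a gene did not always give the same call. There were 9 members with more than 1 probe. The probes of Foxm1 agreed in both comparisons in which the gene met the rule, and no member had probes that met it in opposite directions. The genes described here were chosen after their values were seen. In 8 cases some probes of a gene met the rule and others did not. Foxo3, a factor of quiescence in germ cells and follicles, had 3 probes. Of these, 2 were lower in testis than in SVF (-1.57 and -1.67, and -1.55 and -1.62) and 1 was not (0.85 and 0.31). Sox11, a SoxC gene of progenitors, also had 3 probes. One was lower in testis (-1.84 and -2.37) and in epididymis (-2.27 and -2.99) than in SVF, 1 carried the dye effect, and the third had -0.89 and 0.05 in testis over SVF. As means over probes, neither Foxo3 nor Sox11 met the rule.

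Partners and relatives of these families were given by a list of 32 genes, 30 of which were measured. The rule was met in any comparison by 15 of these 30, near the 47.1% of all named genes. In testis over SVF 3 were higher and 8 lower (median -0.13), in epididymis over SVF 2 were higher and 5 lower (median -0.01), and in epididymis over testis 4 were higher and 5 lower (median -0.07). Toward testis, Eya4, a gene of the Eya phosphatases, had 4.98 and 4.75 over SVF and -3.55 and -3.90 in epididymis over testis. The Groucho corepressor gene Tle3 had 4.52 and 4.76 in testis over SVF, 1.38 and 1.60 in epididymis over SVF, and -3.65 and -3.29 in epididymis over testis. Its paralogue Tle2 was higher in epididymis, with 1.70 and 1.54 over SVF and 2.33 and 2.19 over testis.

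Lmo2, Tal1 and Lyl1, of blood and endothelium, were lower in testis and in epididymis than in SVF. Lmo2, a LIM-only bridge between Gata and Tal1, had -4.23 and -3.89 in testis over SVF and -3.84 and -3.36 in epididymis over SVF. Tal1 had -3.27 and -2.93, and -2.81 and -2.66, in the same order. Its relative Lyl1 had -3.22 and -2.18, and -2.59 and -2.15. The T-box gene Eomes, which acts beside Tbx21 in cytotoxic lymphocytes, had -2.46 and -1.13 in testis over SVF and -1.57 and -2.20 in epididymis over SVF. Other partners of Gata factors did not share this pattern. Ldb1, a further bridge of the Gata complex, had -0.71 and -0.47 in testis over SVF and 0.26 and 0.34 in epididymis over SVF. The Gata cofactor gene Zfpm1 had 1.58 and 0.67 in testis over SVF and met the rule nowhere, and Zfpm2 met it with -1.07 and -1.34 in epididymis over SVF. Sry, the founding Sox relative on the Y chromosome, met it nowhere, with ratios between 0.25 and 1.14.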

How the data were processed

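Total RNA of testis, epididymis and adipose SVF was compared on 6 two-colour arrays. The authors deposited 1 log2 ratio per probe and array for 25344 probes. The base was taken as log2, since on a decimal log the largest values would exceed what a scanner records, while the choice of log2 and not the natural logarithm follows convention. How the authors corrected background and normalized is not given in the labels. Column medians lay between 0.005 and 0.114. Dye-exchanged arrays correlated with r of -0.86, -0.64 and -0.77 across all probes as deposited, so the exchanged array of each pair was turned. Spot intensities were not analysed here, and detection above background was therefore not assessed. A signal near background can pull a ratio towards 0 or make it unstable. The number of arrays limits the precision, and the SD covers hybridisation and dye only.

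Genes were named from the platform annotation through the mouse gene table of GRCm38.p6. Of 21112 annotated probes, 20456 matched by gene ID, 220 by symbol and 248 kept the annotated name, while 158 without a mouse symbol and 30 with several genes were not named. All 98 members matched. Probes of 1 gene were averaged on each array. Calls used a log2 ratio of at least 1 on both arrays, with no p-value, since each tissue is 1 RNA sample. The rule was also tried on simulated data with independent noise on each array. No dye effect was simulated, so that trial does not bear on dye effects, and its outcome is not used here.

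The genes named were the up to 10 highest and 10 lowest members meeting the rule in each comparison, role list members meeting it, up to 2 of each role list that did not, probes with dye effects, members with probes called in opposite directions, members called in opposite directions against SVF, and up to 8 partner genes per comparison. Other genes were named after their values were seen. The members, lists and comparisons were chosen with earlier results of these data known. The calculations used Python 3.11.15, pandas 2.3.3 and numpy 2.4.6. Alternatives were median centring, a least-squares estimate over the loop, other size limits, the strongest probe per gene, dye-affected probes left out, complete genes only, natural logarithms and each array left out.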

Additional observations from a re-analysis of the deposited data

Results flagged for a closer look

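Gata3 and Tbx2 moved in opposite directions in the comparisons of testis and of epididymis with SVF, on every array. Gata3 had a mean log2 ratio of -1.82 in testis over SVF and 2.03 in epididymis over SVF. Tbx2 had -1.91 in testis over SVF and 2.17 in epididymis over SVF. The difference between the 2 comparisons was not tested, and both use the same SVF RNA. The arrays of epididymis over testis gave 3.32 ± 0.41 for Gata3 and 3.59 ± 0.17 for Tbx2 (SD, n = 2 hybridisations). They carry the same testis and epididymis RNAs, so they repeat the hybridisation and not the tissues.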

How the results depend on the processing

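No paired analysis was possible because the array numbers are only names and the 2 arrays of a dye swap carry the same RNAs. Among alternative values of the counts and medians, 67 stayed within 1.5 times of the count or within the spread of the median, and 19 did not. The counts from a single array asked the rule of the remaining array alone, so they could rise but not fall. With 1 array left out at a time, testis over SVF gave 11 to 21 members higher and 12 to 26 lower, epididymis over SVF 13 to 19 higher and 9 to 21 lower, and epididymis over testis 10 to 19 higher and 15 to 23 lower. Medians ranged from -0.21 to 0.15, from -0.17 to 0.14 and from -0.09 to 0.22. At 4-fold on both arrays, 4 members were higher and 4 lower in testis over SVF, 2 and 2 in epididymis over SVF, and 6 and 5 in epididymis over testis. The share of all named genes at 4-fold was not counted. On the mean alone, 12 were higher in testis over SVF and 10 lower in epididymis over SVF. The loop estimate has 1 value per gene and comparison, so its counts did not ask for the limit on both arrays. It gave 10 lower in epididymis over SVF. The natural logarithm, which enlarges every ratio, gave 8 lower there. Median centring lost Sox6 in epididymis over SVF and Sox13 in epididymis over testis, where Six2 was gained. The loop estimate lost Foxo1 in testis over SVF (-0.55) and gained 8, 6 and 6 members in testis over SVF, epididymis over SVF and epididymis over testis. No probe lacked a value, so restricting to complete genes removed none. Leaving out the dye-affected probes added Sox11, as lower in testis and in epididymis than in SVF. Some of these settings changed the rule itself, and any other cause of the shifts was not tested.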

Other observations

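Noncoding transcripts named for a member gene were not members, and 5 of them were measured, chosen after their values were seen. Of these, 3 had the same sign on all 6 arrays as deposited, namely Sox5os3 (mean 1.51), Lhx1os (0.40) and Sox1ot (-0.63). Sox5os3 therefore gave no reading in testis beside Sox5, with turned ratios of testis over SVF of 3.24 and -0.78. Sox6os had 0.35 and -0.86 in testis over SVF, where Sox6 had 5.20 and 4.69, and 1.55 and 1.80 in epididymis over testis, where Sox6 had -3.68 and -4.34.

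A probe annotated to human GATA3 was left unnamed. Its ratios in epididymis over testis were 3.14 and -0.17, and in epididymis over SVF 2.73 and -0.13. The mouse Gata3 probe had 3.03 and 3.61, 1.82 and 2.25, and -2.01 and -1.63, in the same order.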
